A study of Mus musculus with 15 samples.

Results

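The genes of the sarcomere, the repeating contractile unit of striated muscle, and of its calcium supply and anchoring were examined for H3K27ac in a mouse tumor model of fusion-positive rhabdomyosarcoma (FP-RMS), a childhood sarcoma carrying PAX3-FOXO1 (P3F), a fused transcription factor. The 46 genes were listed by their function and matched by symbol to the 21000 protein-coding genes with curated RefSeq transcripts, and all 46 matched. They fell into 5 embryonic genes, 13 adult fast genes, 9 slow or cardiac genes and 19 structural genes.

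The tumors were MCP tumors, from mice with Myf6-Cre and Cdkn2a(Flox/Flox) that also carried R26-tdTom and Pax(3P3F/P3F), the label's spelling for P3F placed in the Pax3 locus. In them Cre from the Myf6 locus, active in myogenic cells, induced P3F, deleted Cdkn2a and labelled cells by tdTomato fluorescence. The series held 15 CUT&RUN libraries, 6 MCP and 3 TCP libraries for H3K27ac and 3 of each with control IgG, where TCP mice carried Tek-Cre, active in endothelial cells, with the same other alleles. The peak list used was that of the H3K27ac library MCP replicate 5, and the other libraries were not analysed here, so there were no replicates, no tumor types were compared and no test across samples was possible. The Wilson 95% intervals below cover the counting of genes only and treat genes as independent.

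Muscle contracts when myosin heavy chains, with their light chains, pull on thin filaments of actin, tropomyosin and troponin. Troponin C binds calcium, troponin I inhibits and troponin T anchors the complex to tropomyosin, and separate genes serve fast, slow and cardiac fibers. Embryonic forms of myosin and troponin precede the adult forms during muscle development. Acetylation of histone H3 at lysine 27 (H3K27ac) marks promoters and enhancers in use, and CUT&RUN releases the DNA beside it with a tethered nuclease.

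The list held 122375 peaks with a median width of 163 bp, and the fold enrichment of a peak is its signal over the local IgG background as the authors' caller computed it. Fragment numbers recovered from the fold and p of each peak had a median of 13 over the summit, which is a relative counting error of 27.7%, and no called summit had fewer than 7. A gene without a peak is therefore a gene where none was called at this depth. Of 16 myogenic regulator genes 11 had a promoter peak (68.8%, 44.4 to 85.8%, beside 58.1% of all genes with similar CpG content), among them Myf6 and Pax3, while Myod1, Myog, Myf5, Pax7 and Mef2c had none, and Myod1, Myog and Pax7 had no peak within 20 kb either. Promoter peaks were found at 0 of 8 endothelial markers (upper Wilson limit 32.4%), 1 of 8 immune markers (Cd68), 3 of 8 fibroblast markers (Col3a1, Pdgfra and Fap) and 1 of 8 smooth muscle genes (Smtn). The shares of all genes with similar CpG content were 30.4%, 14.6%, 28.4% and 31.3% for these 4 lists in turn, each inside the list's Wilson interval, so the counts do not show whether these cell types were present. The part of other cells in the results below was not tested.

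Sequences were chosen to show the kinds of promoter and peak on which the results turn. They are from the GRCm38.p6 assembly, whose coordinates are those of mm10, and promoters are the RefSeq promoter sequences up to the base before the start site. Tpm3, which encodes a tropomyosin of slow muscle and, from an internal start site, shorter forms of non-muscle cells, had promoter peaks only at its internal start site. The 250 bases before each of its start sites are given with CpG dinucleotides in capitals, on the plus strand at chr3:90072401-90072650 and at chr3:90079271-90079520.

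Tpm3 upstream start site: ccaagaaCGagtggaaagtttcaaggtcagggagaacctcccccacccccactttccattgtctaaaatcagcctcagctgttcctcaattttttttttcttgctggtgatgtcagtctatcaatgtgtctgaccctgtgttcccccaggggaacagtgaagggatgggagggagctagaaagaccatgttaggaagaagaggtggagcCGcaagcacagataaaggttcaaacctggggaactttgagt

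Tpm3 internal start site: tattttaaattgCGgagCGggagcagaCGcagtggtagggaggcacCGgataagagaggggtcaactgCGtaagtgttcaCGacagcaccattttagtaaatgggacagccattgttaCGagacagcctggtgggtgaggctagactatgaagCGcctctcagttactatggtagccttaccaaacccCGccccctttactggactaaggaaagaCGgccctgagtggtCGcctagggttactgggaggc

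The upstream sequence held 2 CpG dinucleotides and the internal sequence held 11. The promoters of Acta1 (skeletal alpha-actin, chr8:123894776-123895025, minus strand) and Actc1 (cardiac alpha-actin, chr2:114052876-114053125, minus strand) had no peak within 2 kb. Nor had those of Ckm (muscle creatine kinase, chr7:19410844-19411093, plus strand) and Myl1 (fast myosin light chain, chr1:66945057-66945306, minus strand). They are shown as examples of the 39 genes without a promoter peak. Capitals mark CAGCTG, a form of the E-box bound by MyoD family factors, the CArG box bound by serum response factor, and TATAAA, on either strand. Each promoter shown held CAGCTG or a CArG box. Of the 45 promoters searched below, 24 held either of them and 21 held neither.

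Acta1: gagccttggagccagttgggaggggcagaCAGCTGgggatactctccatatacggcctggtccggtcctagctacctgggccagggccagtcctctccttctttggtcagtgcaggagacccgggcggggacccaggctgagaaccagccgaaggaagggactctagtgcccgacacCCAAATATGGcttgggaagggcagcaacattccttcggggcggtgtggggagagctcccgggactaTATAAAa

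Actc1: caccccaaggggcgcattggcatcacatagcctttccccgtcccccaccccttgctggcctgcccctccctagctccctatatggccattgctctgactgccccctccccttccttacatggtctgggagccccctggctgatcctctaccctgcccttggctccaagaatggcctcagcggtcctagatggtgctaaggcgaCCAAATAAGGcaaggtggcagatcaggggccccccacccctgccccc

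Ckm: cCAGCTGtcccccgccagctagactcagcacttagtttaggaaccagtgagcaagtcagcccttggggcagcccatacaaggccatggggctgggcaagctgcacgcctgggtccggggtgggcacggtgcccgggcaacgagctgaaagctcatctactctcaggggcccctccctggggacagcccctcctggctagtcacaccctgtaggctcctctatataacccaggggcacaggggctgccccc

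Myl1: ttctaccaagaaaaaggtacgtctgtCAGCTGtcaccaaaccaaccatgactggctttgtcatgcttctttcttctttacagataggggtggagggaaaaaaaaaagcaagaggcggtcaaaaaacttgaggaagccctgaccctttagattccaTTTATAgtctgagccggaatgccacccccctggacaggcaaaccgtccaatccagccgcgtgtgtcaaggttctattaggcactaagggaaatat

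The stretch before the Acta1 start site held all 3 motifs, that of Actc1 held the CArG box alone, that of Ckm held CAGCTG alone, and that of Myl1 held CAGCTG and TATAAA. Among the peaks, that in the first 2 kb of Tnnt3 (fast troponin T, chr7:142499196-142499400, plus strand) is shown because it was the strongest at a promoter of CpG-poor sequence shared with no other gene. The strongest peak around Tnni2 (fast troponin I, chr7:142457983-142458132, plus strand) is shown for its composition. Capitals mark E-boxes of the form CANNTG.

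Tnnt3 promoter peak: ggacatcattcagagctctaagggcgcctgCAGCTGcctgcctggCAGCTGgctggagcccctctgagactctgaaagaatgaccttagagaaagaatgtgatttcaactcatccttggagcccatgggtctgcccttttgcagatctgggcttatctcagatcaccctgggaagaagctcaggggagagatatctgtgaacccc

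Tnni2 strongest peak: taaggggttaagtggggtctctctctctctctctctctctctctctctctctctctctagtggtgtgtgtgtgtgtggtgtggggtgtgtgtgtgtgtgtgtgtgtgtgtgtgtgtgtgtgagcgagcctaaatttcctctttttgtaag

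The Tnnt3 peak held the form CAGCTG at 2 places, and the Tnni2 peak held no CANNTG. Of the bases of the Tnni2 peak, which are largely runs of alternating CT and GT, 78.7% are marked as repeats in the reference. Over the 231 peaks around the 46 genes, 23 (9.96%) were more than 50% repeat, against 10.2% of all peaks.

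Promoter peaks, counted as peaks within 2 kb of a start site, were found at 7 of the 46 genes (15.2%, Wilson 95% interval 7.57 to 28.2%), while 45.6% of all 21000 protein-coding genes had one. The 7 were Myl4, Mylpf, Tnnt3, Tnnc1, Tpm3, Tpm1 and Tpm2, so that 3 of them were tropomyosin genes and none encoded a myosin heavy chain, an actin, a Z-disc or a titin-like protein. The remaining 39 genes had no promoter peak. All genes with similar CpG content at the most upstream start site, in 10 strata, had a mean share of 26.4%. That is 12.1 genes of 46, and it lies inside the interval of the 46 genes. The pooled share hides differences by stratum. From the lowest CpG content, strata 1 to 4 had a peak at 1 of 3, 2 of 6, 0 of 17 and 0 of 13 genes. Shares of all genes there were 4.14%, 10.0%, 17.5% and 28.2%. Strata 6 to 8 had 1 of 2, 1 of 2 and 2 of 3, beside 64.0%, 67.8% and 71.3%. Tpm3 counted in stratum 2 by its upstream start site, which had no peak. The part of CpG content in the low share was not tested.

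**Figure D1:**
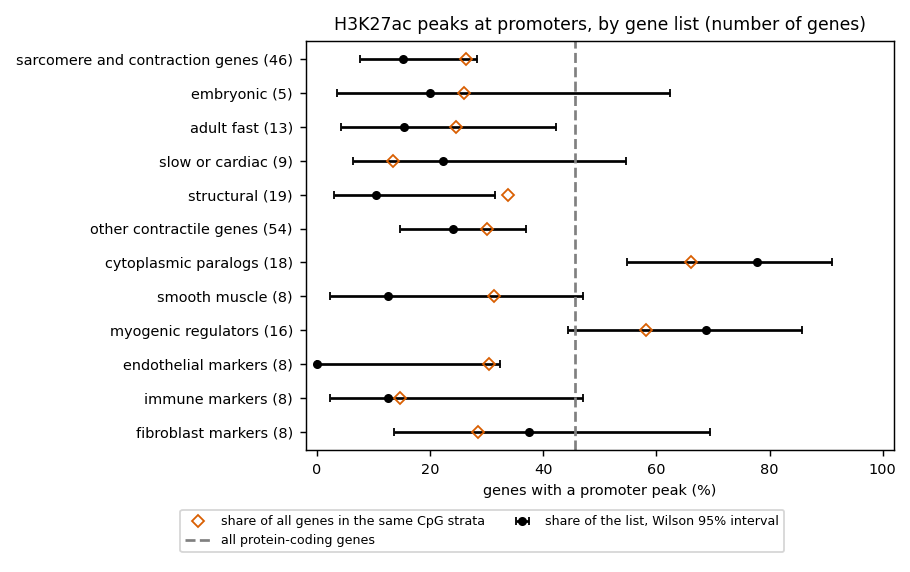
Share of genes with a promoter peak (%) by gene list, with Wilson 95% intervals (black), the share of all genes in the same strata of promoter CpG content (orange) and the share of all protein-coding genes (dashed line, 45.6%). The 46 sarcomere and contraction genes sit at 15.2% and the cytoplasmic paralogs at 77.8%.

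The 4 classes had similar shares. A promoter peak was present at 1 of 5 embryonic genes (20.0%, 3.62 to 62.4%), 2 of 13 adult fast genes (15.4%, 4.33 to 42.2%), 2 of 9 slow or cardiac genes (22.2%, 6.32 to 54.7%) and 2 of 19 structural genes (10.5%, 2.94 to 31.4%), with intervals that overlapped throughout. The share of all genes in the same CpG strata was 26.0%, 24.6%, 13.5% and 33.8% for these classes in turn, and only for the structural class did it lie outside the interval. No difference between embryonic and adult genes was therefore detectable at promoters in this library.

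Among the embryonic genes, Myl4, the light chain of fetal and atrial muscle, carried the strongest promoter peak of the 46 genes. Its fold was 12.1 with 40 fragments, and the summit lay 965 bases before the most upstream of 3 start sites. That peak also lay within 2 kb of a start site of Cdc27, which encodes a subunit of the anaphase-promoting complex, and the other two Myl4 start sites had no peak within 2 kb. Myh3 and Myh8, the embryonic and perinatal myosin heavy chains, Actc1 and Tnnt2 (cardiac troponin T, also used in embryonic skeletal muscle) had no promoter peak.

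Of the adult fast genes, Mylpf and Tnnt3 had promoter peaks. Mylpf, the fast regulatory light chain, had 2 peaks with a strongest fold of 6.08 (13 fragments), both shared with the promoter of Tbc1d10b, and its second, CpG-poor start site had no peak within 2 kb and a nearest summit 4.39 kb away. Tnnt3 had 2 intronic peaks, 510 and 858 bases past the start site, with folds of 6.51 (14 fragments) and 4.36 (9 fragments). No other gene's promoter held them, and only 6 CpG dinucleotides lay within 500 bases of the start site. The adult myosins Myh1, Myh2 and Myh4, the Z-disc gene Actn3 and the calcium pump Atp2a1 had no promoter peak.

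Among the slow or cardiac genes, Tnnc1 and Tpm3 had promoter peaks. Tnnc1, the troponin C of slow and cardiac fibers, had 1 peak of fold 5.94 (15 fragments) 1.35 kb before its start site, and it was also within the promoter of Nisch, which lies head to head with Tnnc1. Tpm3 had 2 peaks overlapping the 2 kb around the internal start site shown above, and 8 further peaks in its introns. That of fold 4.79 (14 fragments) had its summit 560 bases past this start site. That of fold 10.5 (24 fragments) reached the 2 kb only by its edge, with a summit 2417 bases past the start site. The nearest summit to the upstream start site of Tpm3 was 7.43 kb away.

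Of the structural genes, Tpm1 and Tpm2 had promoter peaks. Tpm1, tropomyosin of striated and other muscle with shorter non-muscle forms, had 8 promoter peaks over 2 start sites. At the upstream start site 2 peaks reached a fold of 4.59 (10 fragments), and at the internal start site 6 peaks reached 8.09 (18 fragments). Tpm2, the tropomyosin known as beta, had 2 peaks in its first 2 kb with folds of 6.13 (22 fragments) and 5.15 (28 fragments). No other gene shared the promoters of Tpm1 or Tpm2. With peaks that also lay at another gene's promoter left out, 4 of the 46 genes (8.70%) kept a promoter peak, namely Tnnt3, Tpm1, Tpm2 and Tpm3, against 34.4% of all genes counted in that way.

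Promoter peaks were more frequent at CpG-rich start sites. The 46 genes had 60 curated start sites, of which 8 (13.3%) had a peak within 2 kb, against 45.2% of all start sites of protein-coding genes. Of the 8 start sites with at least 50 CpG dinucleotides within 500 bases, 6 had a peak (75.0%, 40.9 to 92.9%), where 69.2% of all such start sites of protein-coding genes did. Of the 14 start sites with 20 to under 50, 0 had a peak (upper Wilson limit 21.5%), against 42.1% of all, and of the 38 with fewer than 20, 2 had one (5.26%, 1.46 to 17.3%), against 13.1% of all. These limits of 20 and 50 were set after the values were seen, and start sites of one gene are not independent.

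**Figure D2:**
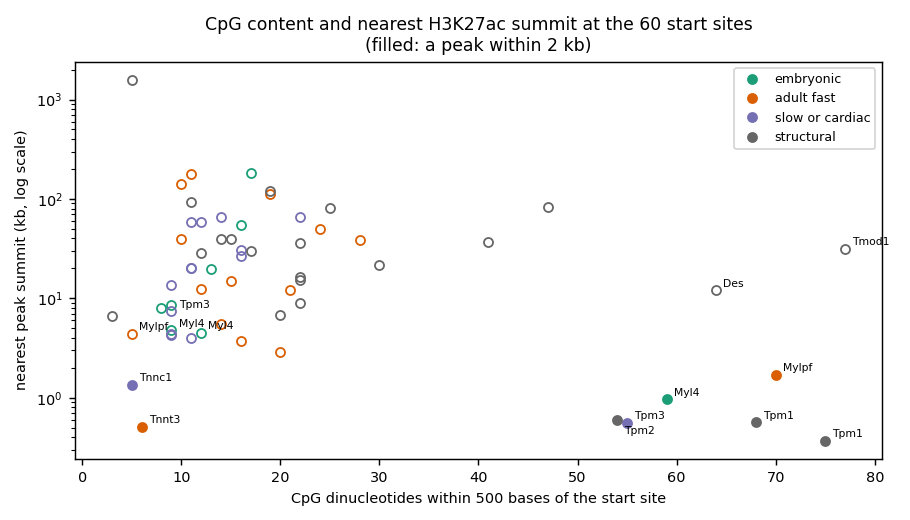
CpG dinucleotides within 500 bases (horizontal axis) and distance to the nearest peak summit (kb, log scale) for the 60 start sites of the 46 genes, colored by class, with filled points for start sites with a peak within 2 kb. The filled points lie at 54 CpG dinucleotides or more except for Tnnt3 and Tnnc1, and Des and Tmod1 are CpG-rich start sites without a peak.

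Des, the intermediate filament protein of muscle, and Tmod1, a cap of thin filament ends, were the CpG-rich exceptions. Des had 64 CpG dinucleotides around its start site and a nearest summit 12.0 kb away, and Tmod1 had 77 and a nearest summit 31.3 kb away. In their CpG strata 67.8% and 71.3% of all genes had a promoter peak.

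Motifs of muscle factors were more frequent before these start sites than before all start sites. The promoter table matched 38 of the 46 genes with 45 promoters, and Actn3, Lmod3, Myom2, Myoz1, Neb, Tcap, Tnni2 and Tnnt3 were not in it. Searched on both strands in the 250 bases before the start site, CAGCTG was found in 18 promoters (40.0%, 27 to 54.5%) against 13.0% of 32851 promoters, and the CArG box in 8 (17.8%, 9.29 to 31.3%) against 1.47%. TATAAA was found in 10 (22.2%) against 12.4%, the MEF2 site in 2 (4.44%) against 0.508%, and CANNTG, which includes CAGCTG, in 36 (80.0%) against 66.2%. Promoters of one gene can overlap, so they are not independent and a motif can be counted more than once. Both promoters of Ldb3, which overlap, counted for the CArG box. Both of Tnni1, which also overlap, counted for CAGCTG. Of all 45 promoters 5 had a peak within 2 kb (11.1%, 4.84 to 23.5%). Of the 24 with CAGCTG or a CArG box 1 had one (4.17%, 0.739 to 20.2%), that of Tpm2, and of the 21 with neither 4 had one (19.0%, 7.67 to 40.0%), so the intervals overlapped. Over the promoters of all protein-coding genes in the table the shares were 40.9% with such a motif and 46.8% without. Around the summits of the 231 peaks near these genes, in 201 bases, CAGCTG was found in 20 (8.66%, 5.67 to 13.0%) against 10.0% of all peaks, and CANNTG in 128 (55.4%, 49.0 to 61.7%) against 64.9%.

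Over the wider window, the gene and 20 kb on either side, 33 of 46 genes held a peak (71.7%, 57.5 to 82.7%), beside 68.7% of all genes. The windows held 231 peaks with a median fold of 5.22 and a median of 13 fragments, the same medians as those of the whole list. Of these peaks 18 lay at a promoter of the 46 genes, 53 at a promoter of another gene and 160 away from promoters. Of the 231 summits 64 lay inside one of the 46 genes, while 89 lay in another protein-coding gene and 78 between genes. The 20 kb on either side make up most of the window of a short gene, so many summits can lie outside it. Neither split of the peaks was made for the windows of all genes. Whether the 46 genes differ from all genes in these splits was not tested. No peak fell in the windows of more than 1 of the 46 genes.

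**Figure D3:**
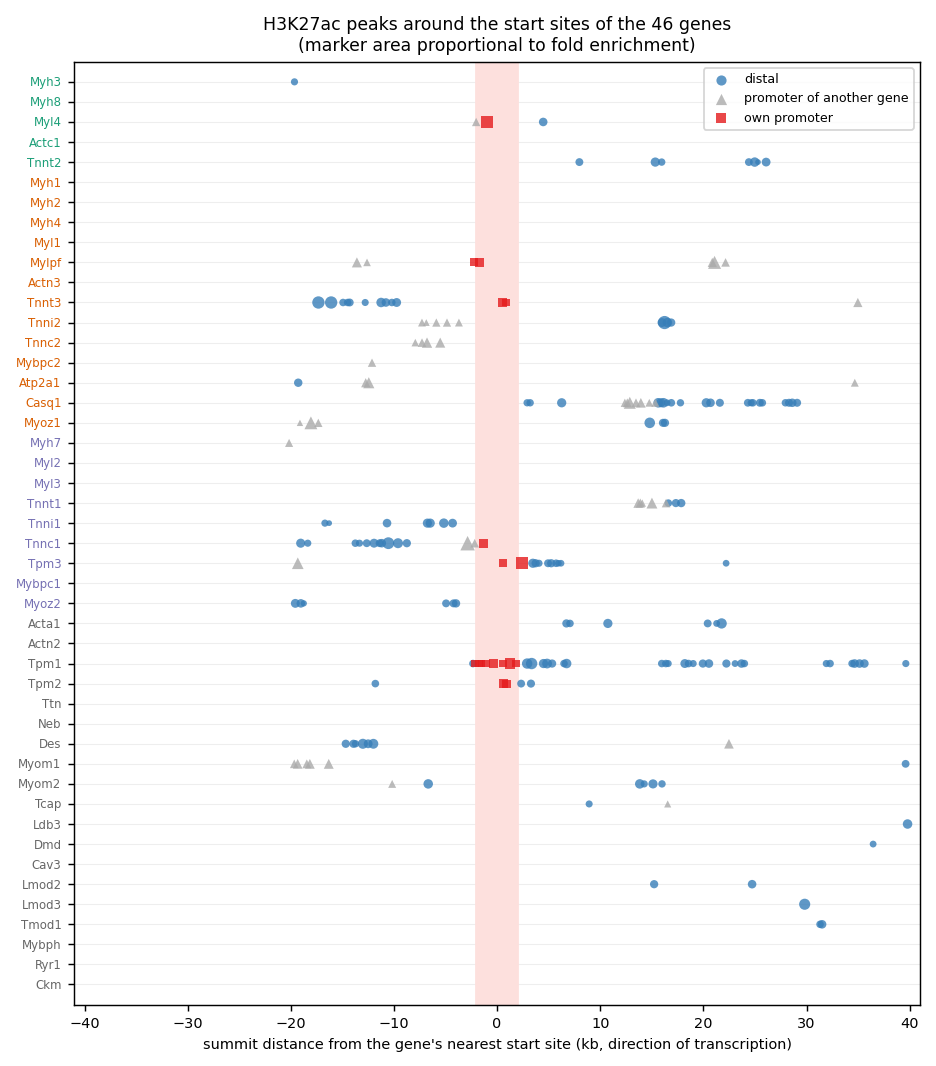
Summits of 205 peaks within 40 kb of a start site of the 46 genes (distance in kb in the direction of transcription, gene names colored by class as in the other plots, marker area proportional to fold enrichment). Own-promoter peaks (red squares) occur in 7 rows, many rows hold only peaks of other genes' promoters (grey) or distal peaks (blue), and rows without markers are the 13 genes with no peak in their window or genes whose peaks lie farther away.

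A peak summit lay inside the gene itself at 13 of the 46 genes (28.3%, 17.3 to 42.5%), beside 49.6% of all genes. By class these were 2 embryonic, 2 adult fast, 1 slow or cardiac and 8 structural genes. A peak away from all promoters was found in the windows of 28 genes (60.9%, 46.5 to 73.6%), beside 52.2% of all genes. The median number of peaks per 100 kb of window was 3.76 beside 4.85 over all genes. It was 1.56 for the embryonic, 6.99 for the adult fast, 10.2 for the slow or cardiac and 3.59 for the structural class. These densities include peaks of neighboring genes. At promoters of other genes lay 1 of 11 embryonic, 29 of 72 adult fast, 11 of 52 slow or cardiac and 12 of 96 structural window peaks. Whether the classes differ in density was not tested. Of the 46 genes 20 exceeded the density of their own chromosome, while 50.9% of all genes did.

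**Figure D4:**
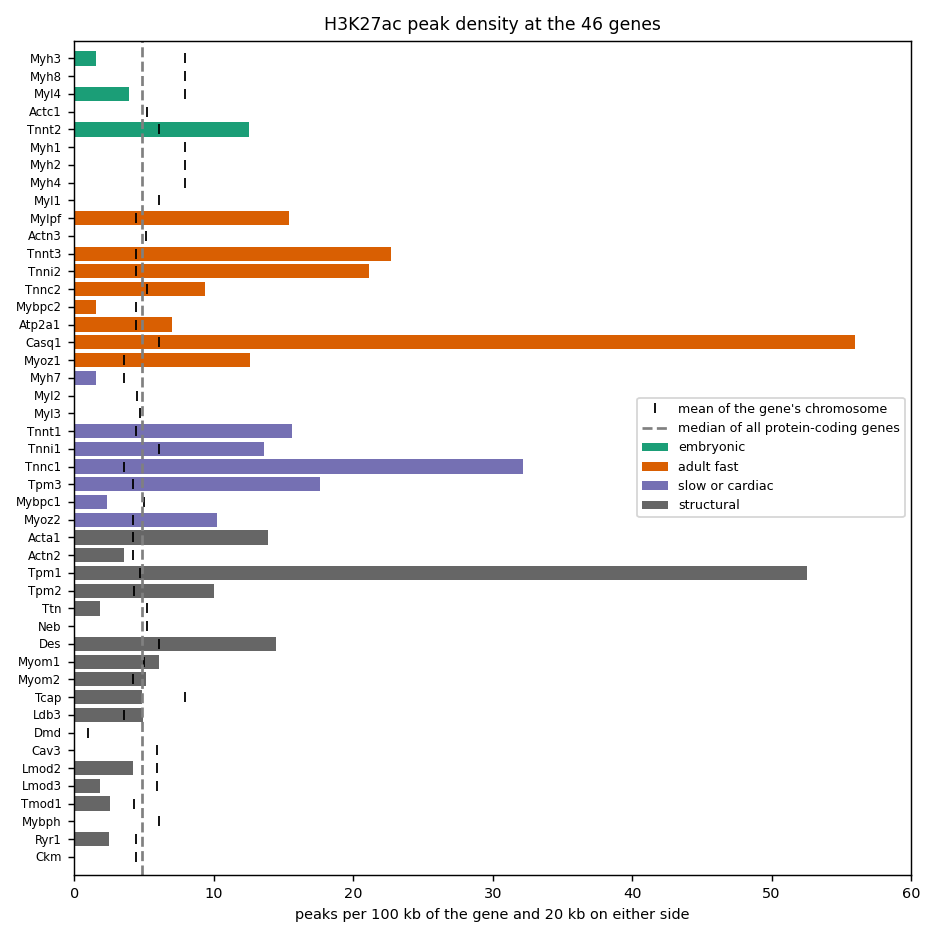
Peaks per 100 kb of the gene and 20 kb on either side for the 46 genes (bars colored by class), with the density of each gene's chromosome (ticks) and the median of all protein-coding genes (dashed line, 4.85). Casq1 and Tpm1 reach 56.0 and 52.5, and 13 genes are at 0.

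Casq1, the calcium store protein of fast fibers, had the highest density, with 28 peaks (56.0 per 100 kb, against 6.07 on its chromosome 1). Of these, 3 lay in its own introns, and the strongest of all (fold 11.1, 29 fragments) was at the promoter of the neighboring Pea15a. Within Dcaf8 and Pea15a lay 9 distal peaks each. Tpm1 followed with 35 peaks (52.5 per 100 kb), of which 24 lay inside the gene and none at another gene's promoter. Most peaks of Tpm1 thus lay in the gene itself, and most peaks counted for Casq1 lay in its neighbors.

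Tnnc1 had 14 peaks (32.2 per 100 kb), and its window held the highest fold of any of the 46, 16.1 with 37 fragments, at the promoter of Nisch. All but its promoter peak lay inside Nisch. Tnnt3 had 13 peaks (22.7 per 100 kb), 10 of them in the neighboring Lsp1, where 2 reached a fold of 11.7 (26 fragments). Tnni2 had 9 peaks (21.1 per 100 kb), of which 5 were at the promoter of Syt8, and its strongest, of fold 13.4 (30 fragments), was the repeat-rich peak shown above. After Tnnc1 and Tnni2, the highest folds in the windows were those of Mylpf (13.0, 29 fragments, at the promoter of Zfp553), Myoz1 (12.7, 30 fragments, at the promoter of Sec24c) and Myl4 (12.1, the promoter peak above), ahead of Tnnt3.

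The troponin genes lie in pairs of a troponin I and a troponin T gene. On chromosome 1, Tnni1 (slow troponin I) and Tnnt2 had 7 distal peaks each, with strongest folds of 6.88 (30 fragments) and 6.87 (23 fragments), and neither had a promoter peak. The summit nearest to Tnni1 lay 4.32 kb before its start site. On chromosome 7, Tnnt1 (slow troponin T) had 8 peaks, all in or beside Ppp1r12c, with a strongest fold of 9.10 (20 fragments). Tnnc2, the fast troponin C, had 4 peaks, all at the promoter of Snx21.

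A window peak was present at 71.7% of the 46 genes and 68.7% of all genes, so genes without one were not more frequent here. The 13 genes without a peak in their window were Myh8, Actc1, Myh1, Myh2, Myh4, Myl1, Actn3, Myl2, Myl3, Neb, Cav3, Mybph and Ckm. They included most of the myosin heavy chain genes on chromosome 11, where Myh3, Myh2, Myh1, Myh4 and Myh8 stand side by side. From the start of Myh3 to the end of Myh8 (chr11:67078300-67308634, 230 kb) there was no peak, and the nearest were 19.6 kb before and 152 kb after. Of 530 stretches of the same length along chromosome 11, 157 held none, and their median was 10.5. Myh7, the slow myosin, had 1 peak of fold 5.05 (16 fragments), at the promoter of Ngdn.

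The longer structural genes differed in peak density. Ttn, which encodes the molecular spring titin, spans 279 kb and had 6 peaks, all beyond its end, with a strongest fold of 6.94 (15 fragments). Neb, the thin filament ruler nebulin, had none in 202 kb. Dmd, which encodes dystrophin, had 1 peak (fold 3.58, 11 fragments), 0.0436 per 100 kb against 0.996 on the X chromosome. Ryr1, the calcium release channel, had 4 peaks, all in its introns, with a strongest fold of 6.08 and a density of 2.47 per 100 kb against 4.42 on chromosome 7. The M-band genes Myom1 (107 kb) and Myom2 (75.8 kb) and the Z-disc gene Ldb3 (62.0 kb) lay above their chromosomes, at 6.11 against 4.97, 5.18 against 4.21 and 4.90 against 3.58 peaks per 100 kb. Actn2 (71.3 kb) and Tmod1 (76.8 kb) lay below, at 3.59 against 4.21 and 2.57 against 4.26. The Myom1 density counts 9 peaks, of which 5 lay at the promoter of the neighboring Myl12a and only 4 were distal. All 4 Actn2 peaks were at the promoter of Mtr. The densities of Myom2 and Ldb3 rest on 6 peaks, 1 of them at another gene's promoter, and on 5. Densities of single genes without promoters of other genes were not computed.

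Acta1 had 6 peaks, all on the far side of the gene's end, the nearest 6.72 kb from the start site, with a strongest fold of 8.18 (24 fragments). Des had 6 distal peaks from 11996 to 14673 bases before its start site, the strongest of fold 7.77 (34 fragments). Lmod3, a nucleator of thin filaments, had 1 peak of fold 9.48 (33 fragments) in the neighboring Arl6ip5. These 3 were among 26 of the 46 genes whose window held a peak but whose promoter held none. The share of all genes of this kind was not counted. Of all genes 68.7% had a window peak and 45.6% a promoter peak.

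Clusters were built by joining peaks outside 1 kb of start sites within 0.0125 Mb of each other, and 864 of 20851 clusters exceeded the point where ranked scores rise with slope 1. The bodies of 2 of the 46 genes overlapped such a cluster (4.35%), beside 4.37% of all genes. They were Casq1, at rank 515, and Tpm1, at rank 815, near the limit. Neither call held with stitching within 5 kb or with peaks of a -log10 q of at least 5, where 0 of the 46 genes overlapped such a cluster.

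Relatives of these genes, called cytoplasmic paralogs here, had promoter peaks more often than the 46 genes. Atp2a2 and Nebl among them were also counted below as contractile genes, so not all are genes used only outside muscle. Of the 18 paralogs 14 had a promoter peak (77.8%, 54.8 to 91.0%). The share of all genes in the same CpG strata, 66.1%, lies inside that interval. The 14 included Tpm4 (fold 11.7), Myl6 (12.7), Actn4 (9.96) and Vim (10.9), and also Utrn, the dystrophin relative, while Myh10, Myl9, Nebl and Ckb had none. The interval of the paralogs did not overlap that of the 46 genes. Their median density was 24.5 peaks per 100 kb, beside 4.85 over all genes. Of the 18, 5 (27.8%) overlapped a cluster above the limit, beside 4.37% of all genes. The median CpG count of the paralogs was 73.0, against 16.0 for the 46 genes. The part of CpG content in the difference between these lists was not tested beyond the strata.

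Of 54 other contractile genes, 13 had a promoter peak (24.1%, 14.6 to 36.9%) beside 30.0% in the same strata. The strongest were at Flnc (filamin C, fold 11.2), Eno3 (muscle enolase, 8.76), Pdlim5 (8.51), Pdlim7 (7.80) and Obsl1 (7.37). In the wider window 41 of the 54 held a peak (75.9%, 63.1 to 85.4%), beside 68.7% of all genes. Atp2a2 and Nebl were counted in this list and among the paralogs.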

How the data were processed

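Tumors were dissociated, live cells sorted and CUT&RUN done with an H3K27ac antibody or IgG, and 1 narrowPeak list was used, tied to its library by the number in its peak names. The study's methods name bowtie and an early MACS release with a threshold on p, while the submitters' processing notes name BWA, SAMtools and MACS2 with builds mm10 and dm6, so the steps behind the list are not settled here. The authors' list holds per peak a score, a fold, a -log10 p and a -log10 q, and the largest deposited q-value was 0.0471. The fold was taken as the ratio of signal to local IgG background with 1 added to each, which is lower than the plain ratio. Of the peak numbers in the list 584 were absent, and 1 of the 46 gene windows (Actn2) lay beside such a place.

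A peak counted where at least 1 bp overlapped 2 kb either side of a curated RefSeq start site, or the gene and 20 kb either side. Fragments were solved from fold and p with a scale of 0.885 between libraries, where a whole number of fragments met the listed -log10 p within 0.01 for all but 1 peak and was the only such number for 96.7% of peaks. They are inferences, not read counts, and cover counting error only. Of the member peaks 42.4% had the lowest IgG background, as had 47.0% of all peaks, so there fold follows fragments alone. Overlap, motif and fragment steps were tested on simulated data. Python 3.11.15, pandas 2.3.3 and scipy 1.17.1 were used.

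The members and lists were chosen with earlier results of these data known. Named were all members with a promoter peak, those with no window peak, the 5 densest and the 5 of highest fold, with at least 1 further per class, and of other lists all under 10 or the 5 of highest fold. Others named, such as Ttn, Dmd, Des and Acta1, were chosen after values were seen. Alternatives changed the promoter width, peak strength, start sites, window, stitching and shared promoters.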

Additional observations from a re-analysis of the deposited data

How the results depend on the processing

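Of 76 alternative settings over 15 results, 64 stayed within the interval of the value reported, or within 1.5 times of the median density, and 12 moved further. With the strongest 25% of peaks the adult fast class had promoter peaks at 0% and the other contractile genes at 13.0%, and with peaks at no other gene's promoter the embryonic class was at 0%. The share of genes with a peak in the wider window was 56.5% with 10 kb either side, 28.3% for the gene body alone and 52.2% for the strongest 25% of peaks. In these 3, and at 63.0% without promoters of other genes, it fell below the share of all genes (62.7%, 49.9%, 52.4% and 63.2%), so the wider window was not higher than all genes throughout. The median density was 2.35 with 10 kb, 1.90 with a -log10 q of at least 5, 0.551 with the strongest 25% and 2.16 without promoters of other genes, below that of all genes each time. No gene was in a cluster above the limit (0%) with stitching within 5 kb or a -log10 q of at least 5, and 8.70% were, beside 6.03% of all genes, when 20 kb either side was counted. The promoter share of the 46 genes ran from 8.70% to 21.7% over its 8 alternatives, below all genes in each, and GENCODE start sites added Casq1, Myom1 and Tnni1. The GENCODE start sites, the peaks at no other gene's promoter and the genes beside absent peak numbers were added after seeing the data. The causes of these shifts were not tested. No paired analysis was possible because the list holds 1 library. With a counting error of 27.7% on a median peak, folds near each other cannot be ranked.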
